A study of Mus musculus with 16 samples.

Results

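The comparison described here is the effect of TPCA-1, a small-molecule inhibitor of the kinase IKK2, on the transcriptome of mouse macrophages held in tumour necrosis factor α (TNFα). It rests on 8 of the 16 RNA-seq libraries of the study, chosen by their labels: 4 of cells given TPCA-1 and TNFα (TPCA-1+TNFα, replicates 1 to 4) and 4 of cells given TNFα alone (replicates 1 to 4). The other libraries were 4 of DMSO controls without TNFα and 4 of cells given TNFα after TMP195, an inhibitor of class IIa histone deacetylases. The series is named for a role of histone deacetylase 9 in vascular inflammation and in IKK activation. The TPCA-1 arm gives the response of TNFα-treated cells to this compound. Whether IKK2 was inhibited in these cells, and which of the changes followed from its inhibition, was not tested.

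All 16 libraries came from bone marrow-derived macrophages of the genotype B6.129P2-Apoetm1Unc/J, a targeted disruption of Apoe, with C57BL/6J given as the strain, so that the controls carry the Apoe allele as well. The marrow had been grown into macrophages with L929-conditioned medium, and the cells were then kept without it and stimulated in medium free of serum. TNFα was used at 50 ng/ml for 24 h, and TPCA-1 at 500 nM or TMP195 at 5 µM was added 1 h before it. The labels give no age and do not say whether the cells stimulated with TNFα alone had received DMSO. They also do not say whether the replicates came from separate animals or cultures, and p-values here measure only the spread between these libraries.

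IKK2 (gene Ikbkb) is the kinase of the IκB kinase complex that marks IκB proteins for degradation after a TNF receptor signal, which frees NF-κB dimers to enter the nucleus and induce cytokines, chemokines, survival genes and the pathway's own inhibitors. A second route, through Map3k14 (NIK) and Chuk (IKK1), processes Nfkb2 and does not need IKK2. Macrophages also hold a set of interferon-stimulated genes, whose promoters carry an interferon-stimulated response element read by STAT and IRF factors, and which low amounts of secreted type I interferon keep active.

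The counts per library ranged from 18562773 to 31596572 reads in the TNFα group and from 20434846 to 20988494 reads in 3 of the TPCA-1+TNFα libraries. TPCA-1+TNFα replicate 2 stood apart. It had 7489066 counted reads, 44.0% of its reads did not map, and 2.91% of its counts were mitochondrial, against 3.69% to 6.19% in the other 7. For 47.1% of the genes it was the library of its group that lay farthest from its nearest neighbour in the group. For 32.3% that library was TPCA-1+TNFα replicate 1. Results are therefore given with and without replicate 2. The defining macrophage genes were present in all 8 libraries. Adgre1, which encodes F4/80, was between 4848 and 7229 CPM (counts scaled to a library total of 1000000), and Lyz2, lysozyme, between 5197 and 15992 CPM. Apoe, the disrupted gene, had at most 11 reads in any of the 16 libraries. No library was a repeat of another: the chi-square per gene was 15.5 to 75.7 over the 12 pairs of replicates in these 2 groups.

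Promoters of genes that recur below are shown first, because many of the genes that fell most held a sequence that few expressed genes carried. RefSeq promoter windows (build GRCm38.p6, 250 bases before to 50 after a start site) were searched on both strands for the core of the interferon-stimulated response element, spelled GAAANNGAAA, and for the κB consensus bound by NF-κB. No window held the 2 motifs in overlap. Each line below gives the 220 bases before the start site, 5′ to 3′ along the gene's strand, and capitals mark the matches. Ifit3 (chr19:34583309-34583528, plus strand), Oas3 (chr5:120777660-120777879, minus strand) and Igtp (chr11:58199336-58199555, plus strand) are interferon-regulated genes that carry the interferon element. Nlrp3 (chr11:59541349-59541568, plus strand, the upstream one of its windows) stands for fallen inflammatory genes with a κB match. Cxcl10 (chr5:92348890-92349109, minus strand) carries both. Spib (chr7:44532072-44532291, minus strand) was among the genes that rose, and also carries a κB match.
Ifit3: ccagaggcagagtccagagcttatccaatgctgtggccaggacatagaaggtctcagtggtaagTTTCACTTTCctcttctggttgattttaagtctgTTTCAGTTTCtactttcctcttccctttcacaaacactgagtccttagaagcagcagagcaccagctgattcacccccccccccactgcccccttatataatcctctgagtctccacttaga
Oas3: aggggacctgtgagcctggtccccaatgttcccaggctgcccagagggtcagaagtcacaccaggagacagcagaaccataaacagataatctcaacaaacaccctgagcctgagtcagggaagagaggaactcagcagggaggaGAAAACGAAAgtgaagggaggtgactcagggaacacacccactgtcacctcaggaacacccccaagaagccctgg
Igtp: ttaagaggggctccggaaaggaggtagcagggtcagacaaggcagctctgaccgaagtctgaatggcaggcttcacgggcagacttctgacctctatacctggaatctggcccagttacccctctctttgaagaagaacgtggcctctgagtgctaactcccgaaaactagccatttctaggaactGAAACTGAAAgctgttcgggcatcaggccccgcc
Nlrp3: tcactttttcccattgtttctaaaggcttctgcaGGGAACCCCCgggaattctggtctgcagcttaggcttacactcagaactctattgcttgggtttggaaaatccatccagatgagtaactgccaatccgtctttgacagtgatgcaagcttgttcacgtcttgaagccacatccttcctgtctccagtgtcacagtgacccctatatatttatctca
Cxcl10: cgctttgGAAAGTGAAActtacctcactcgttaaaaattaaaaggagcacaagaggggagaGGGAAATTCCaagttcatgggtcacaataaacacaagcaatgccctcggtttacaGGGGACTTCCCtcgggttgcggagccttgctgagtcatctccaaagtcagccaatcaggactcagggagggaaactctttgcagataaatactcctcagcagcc
Spib: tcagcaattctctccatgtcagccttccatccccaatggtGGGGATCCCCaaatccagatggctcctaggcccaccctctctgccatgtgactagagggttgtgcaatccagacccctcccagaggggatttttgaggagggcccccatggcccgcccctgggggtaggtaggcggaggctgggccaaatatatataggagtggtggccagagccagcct
Windows were found for 9289 of the genes tested, and 4.05% of these genes had the interferon element. It was in 33 of the 62 matched genes that fell at least 8-fold with TPCA-1 (53.2%), in 103 of the 953 matched genes that fell by any amount (10.8%) and in 29 of the 933 that rose (3.11%). In the list of interferon-stimulated genes described below, 15 of the 28 matched members had it (53.6%). So did 8 of the 9 matched guanylate-binding proteins and immunity-related GTPases. The κB consensus was in 8.49% of the matched genes tested, 9.13% of those that fell and 9.00% of those that rose. Among those that fell at least 8-fold it was in 6 of 62 (9.68%). By list, it was in 4 of 8 matched CXC chemokines, 0 of 5 CC chemokines, 4 of 11 cytokines and growth factors and 5 of 8 NF-κB and IκB genes. These shares are descriptions of the letters in these windows, and a window without a match says nothing of a factor's binding elsewhere.

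Reads per gene were compared after TMM normalisation, and levels are given as TMM-normalised CPM. TPCA-1 changed the expression of 2446 of the 12612 genes tested (19.4%; edgeR quasi-likelihood test, Benjamini-Hochberg adjusted p under 0.05), of which 1220 were higher (9.67% of the genes tested) and 1226 lower (9.72%). The 2 directions were about equal in number and unequal in size. At least 8-fold changes numbered 95 downward and 17 upward, and at least 2-fold changes 516 downward and 386 upward. Without TPCA-1+TNFα replicate 2, 1952 genes passed, 919 higher and 1033 lower, and 1807 of these were among the 2446. None of the genes called in both fits changed sign. The number of genes called higher was less stable than the number called lower: it was 725 without TNFα replicate 1, 771 without TNFα replicate 3 and 789 without TPCA-1+TNFα replicate 4, while the number lower was at least 925 without any 1 library.

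**Figure D1:**
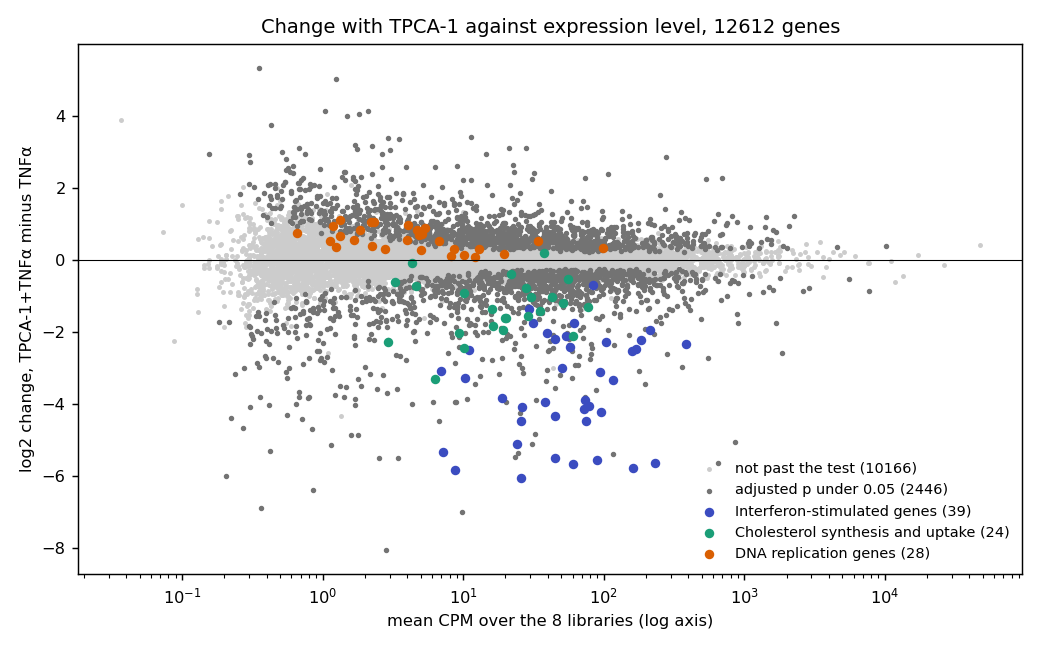
Log2 change of each of the 12612 genes (TPCA-1+TNFα minus TNFα) against its mean level over the 8 libraries in CPM on a log axis; dark points passed the test. The 39 interferon-stimulated genes lie between -6.05 and -0.68, most of them below the bulk of genes at the same level.

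**Figure D2:**
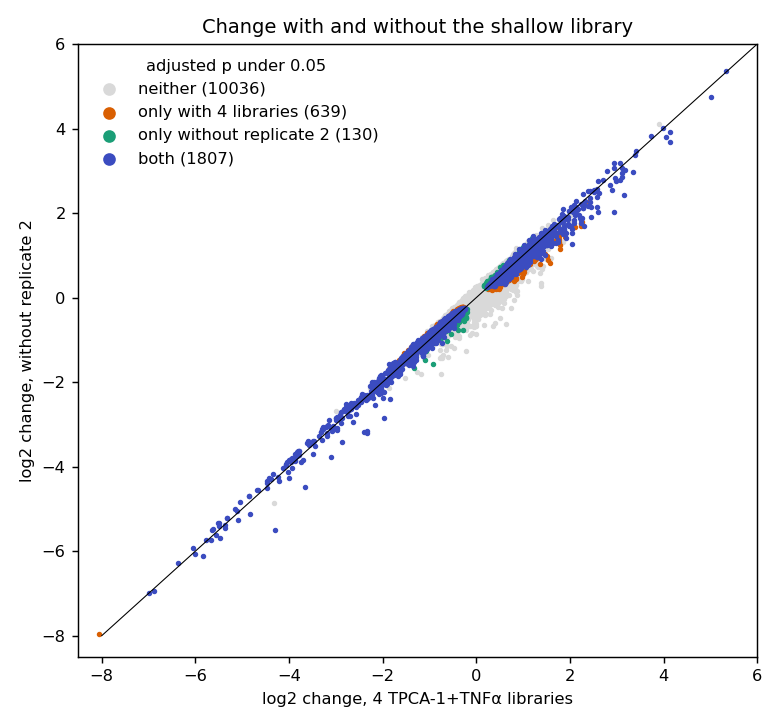
Log2 change of each gene fitted with all 4 TPCA-1+TNFα libraries (horizontal) and without the shallow replicate 2 (vertical), with the line of equality. The 1807 genes called in both fits follow the line, and 639 genes were called only with the shallow library in the fit and 130 only without it.

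The interferon-stimulated genes fell as a whole list. Their list was chosen with earlier results of these data known. All 39 of its measured members fell, with a median log2 change of -3.32 beside 0.02 over all genes tested. All 39 were called lower without each of the 8 libraries in turn. In every one of the 39 the TPCA-1+TNFα and TNFα libraries did not overlap; over all genes 9.75% were lower without overlap and 8.71% higher without overlap. Oasl2, an interferon-induced relative of the oligoadenylate synthetases (chr5:114896936-114912234), had 377, 280.5, 335 and 287 CPM in the TNFα libraries and 5.38, 5.00, 7.78 and 4.86 CPM in the TPCA-1+TNFα libraries. Every TPCA-1+TNFα library was thus far below every TNFα library, the shallow one included. Its level was 55.0-fold lower with TPCA-1 (log2 -5.78, SE 0.20, adjusted p = 5.51e-12). Oas3, which makes the oligoadenylate signal that activates RNase L (chr5:120753098-120777661), went from 192, 162, 175 and 178 CPM to 3.13, 4.46, 4.41 and 3.31 CPM, again without overlap, a 47.0-fold lower level (SE 0.19 on the log2 scale, adjusted p = 5.51e-12).

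Ifit3, which binds the antiviral RNA sensor IFIT1 and whose promoter above holds 2 interferon elements (chr19:34583531-34588731), had 125, 77.7, 90.8 and 56.9 CPM with TNFα alone and 1.76, 1.35, 1.44 and 2.97 CPM with TPCA-1 (log2 -5.49, SE 0.44, adjusted p = 1.62e-07). The groups did not overlap, and the lowest TNFα library still held many times the level of the highest TPCA-1+TNFα library. Only its uniquely mapped reads were counted, which matters because its near copy Ifit3b lies in the same cluster; Ifit3b had a log2 change of -5.84. Zbp1, a sensor of left-handed nucleic acids, fell by 5.67 on the log2 scale, and Rtp4, an interferon-induced receptor transporter protein, fell by 5.63. Ifi44 fell by 6.05. The smallest fall in the list was that of Tor3a (-0.68, chosen after its values were seen).

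The neighbouring interferon-regulated families moved with them. Of 13 measured genes of the Ifi200 family, which sense DNA and act in the nucleus, 11 fell (10 without TPCA-1+TNFα replicate 2; median -3.80). Ifi204 went from 174, 158, 128 and 88.7 CPM to 11.7, 7.84, 10.6 and 8.80 CPM (adjusted p = 2.06e-07). The lowest TNFα library was well above the highest with TPCA-1. Ifi206 and Ifi213 fell by 5.47 and 7.00, but Ifi213 retained only 2, 1, 3 and 4 reads in the TPCA-1+TNFα libraries, so that the size of its fall is poorly fixed. These genes are near copies of one another, and the counts reflect only the reads that map to one of them. Of 15 guanylate-binding proteins and immunity-related GTPases, which attack vacuoles that hold microbes, 14 fell (14 without replicate 2; median -3.46). Gbp2 (chr3:142620602-142638008) had 76.5, 42.0, 71.5 and 49.5 CPM with TNFα and 1.71, 2.84, 1.73 and 1.22 CPM with TPCA-1. The groups did not overlap, and Gbp2 was 34.2-fold lower (SE 0.34 on the log2 scale, adjusted p = 1.91e-08). Igtp was 5.26-fold lower. The exception was Gbp8, named after its values were seen, at 0.82 (adjusted p = 0.133).

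Transcription factors that drive these genes were among those that fell. Irf7, the interferon-induced factor that amplifies interferon production (chr7:141262706-141266481), had 277, 189.5, 234 and 211 CPM with TNFα and 4.55, 6.76, 5.94 and 5.11 CPM with TPCA-1, without overlap (log2 -5.38, SE 0.25, adjusted p = 2.98e-10). Irf9, the DNA-binding part of an interferon-activated complex, went from 66.7, 66.3, 68.0 and 76.6 CPM to 12.5, 9.32, 14.8 and 12.3 CPM (adjusted p = 5.90e-10), and here too every library with TPCA-1 was below every library without it. Of the 25 measured interferon receptors, JAK kinases, STAT and IRF factors and SOCS proteins, 9 fell and 2 rose. The numbers were 8 and 1 without TPCA-1+TNFα replicate 2 or 4 or TNFα replicate 1, 2 or 3. The risers were Irf5 and Irf8, named after their values were seen. Among the members chosen after their values were seen, Stat2 fell by 2.67 on the log2 scale. Socs3, the feedback inhibitor of JAK kinases chosen likewise, fell by 2.71. The receptor subunits Ifnar1 (-0.20), Ifngr1 (-0.20) and Ifngr2 (0.02) and the kinases Jak1 (-0.17) and Tyk2 (0.19), chosen likewise, did not pass the test. Transcripts of interferon itself were at the limit of detection: the 14 genes of the Ifna family together had 0 to 2 reads in a library, and Ifnb1 had 0 to 3, in every group, so that a difference was not detectable at this depth.

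The interferon-stimulated genes were already expressed in unstimulated cells, and with TPCA-1 they were below that level too. Oasl2 averaged 379.8 ± 65.4 CPM in DMSO and 417 ± 76.3 CPM with TMP195 and TNFα (SD, n = 4 each), beside 320.0 ± 45.5 CPM with TNFα and 5.75 ± 1.37 CPM with TPCA-1 and TNFα. In all 39 genes, and in 15 of 15 GTPases and 11 of 13 Ifi200 genes, the 4 TPCA-1+TNFα libraries lay below all 4 DMSO libraries, where 14.1% of all genes did so. TNFα itself changed 2 of the 39 upward and 1 downward against DMSO, beside 1377 upward and 1568 downward of all 12612 genes. Against TMP195 with TNFα, where 25.7% of all genes differed (12.6% higher with TPCA-1, 13.1% lower), all 39 were lower with TPCA-1. The 2 inhibitors were used at different doses, and this test compares the libraries as treated.

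**Figure D3:**
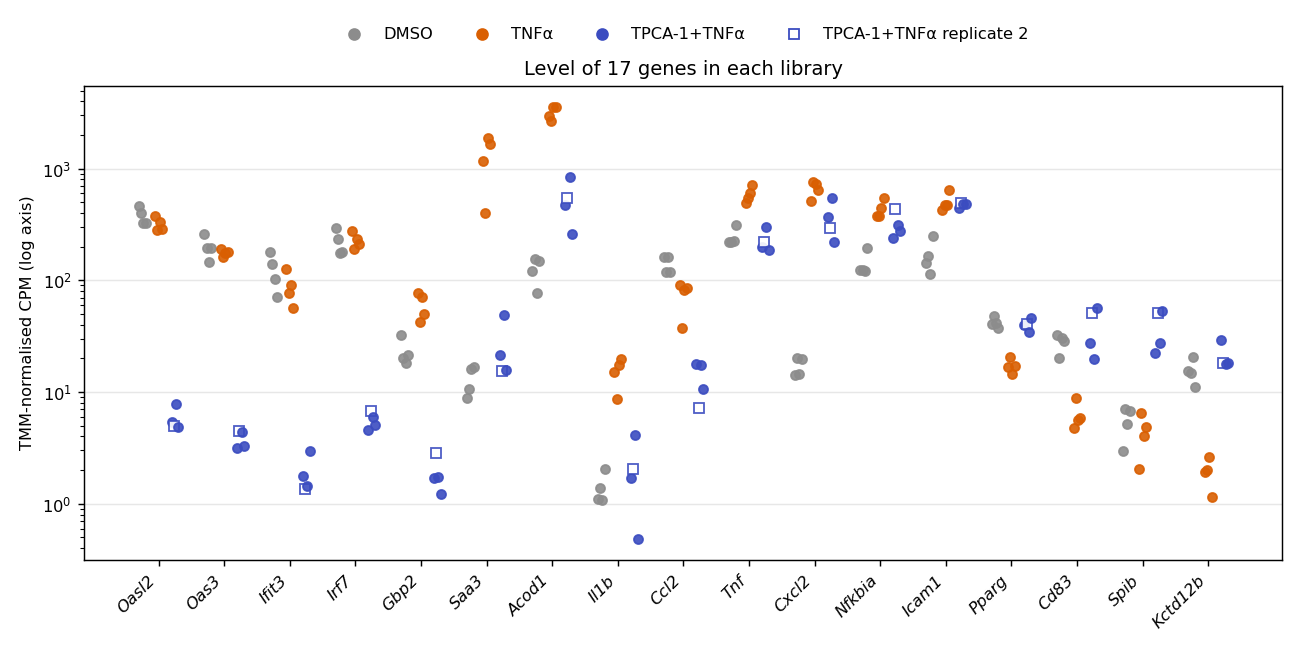
Level of 17 genes in each library of the DMSO, TNFα and TPCA-1+TNFα groups, in TMM-normalised CPM on a log axis; the open square is the shallow TPCA-1+TNFα replicate 2. Oasl2, Oas3, Ifit3 and Irf7 are similar in DMSO and TNFα and far lower with TPCA-1, Saa3, Acod1 and Il1b are higher with TNFα alone than in both other groups, and Icam1 and Nfkbia overlap between TNFα and TPCA-1+TNFα.

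Most transcripts of the MHC class I pathway, which interferon and NF-κB both raise, were lower. Of 20 measured class I, peptide-transporter and immunoproteasome genes, 16 fell and none rose, and 18 fell without TPCA-1+TNFα replicate 2 (median -1.16). H2-T23, the non-classical molecule Qa-1, had 65.5, 58.0, 74.6 and 74.7 CPM with TNFα and 12.7, 16.8, 15.9 and 12.8 CPM with TPCA-1, without overlap (log2 -2.24, SE 0.14, adjusted p = 5.01e-09). H2-T22 fell by 1.70. The classical genes H2-K1 (-0.41, adjusted p = 0.108) and H2-D1 (0.04), chosen after their values were seen, did not pass. The shallow library, at 675 CPM for H2-K1, lay inside the TNFα range, and without it H2-K1 fell by 0.63 (adjusted p = 0.00819). The class II and costimulation list moved in both directions, with 4 of 12 higher and 3 lower (3 and 2 without replicate 2). Icosl, the ligand of the T cell receptor ICOS, had 16.5, 20.8, 19.9 and 20.2 CPM with TNFα and 45.7, 60.3, 43.7 and 46.0 CPM with TPCA-1, with every treated library higher (adjusted p = 1.60e-05). Cd83, a surface protein of activated antigen-presenting cells (chr13:43784775-43803132), went from 4.72, 8.78, 5.62 and 5.89 CPM to 27.6, 51.1, 19.8 and 57.1 CPM, also without overlap (log2 2.63, SE 0.29, adjusted p = 5.47e-06). In DMSO Cd83 averaged 28.0 ± 5.36 CPM.

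Among the inflammatory products of TNFα, the response to TPCA-1 was uneven. Saa3, an acute-phase apolipoprotein (chr7:46711998-46715700), had 1176, 403, 1883 and 1671 CPM with TNFα and 21.3, 15.3, 48.9 and 15.9 CPM with TPCA-1. The TNFα libraries varied severalfold among themselves and still did not overlap with the treated ones, and Saa3 was 50.0-fold lower (SE 0.58 on the log2 scale, adjusted p = 2.94e-06). Its DMSO mean was 13.1 ± 3.97 CPM. Of the 7 measured acute-phase and granule genes 6 fell, with or without replicate 2, among them the copper carrier Cp (-2.16) and the siderophore-binding Lcn2 (-2.08). Only 5 were called lower when any of TNFα replicates 1, 2 and 3 or TPCA-1+TNFα replicate 4 was left out, because S100a8 (-1.01, adjusted p = 0.0331) then reached 0.0505, 0.0740, 0.104 and 0.0804.

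Of 19 measured cytokines and growth factors 8 fell and 3 rose, the same numbers as without replicate 2. Il1b, the inflammasome cytokine (chr2:129364570-129371139), had 15.2, 8.64, 17.6 and 19.6 CPM with TNFα and 1.71, 2.03, 4.16 and 0.486 CPM with TPCA-1. The groups did not overlap (log2 -2.86, SE 0.43, adjusted p = 0.000142; -3.56 without TPCA-1+TNFα replicate 3, the highest of the treated libraries). Il1a, which acts at the same receptor, fell by 2.89. Tnf itself (chr17:35199381-35202007) had 497, 548, 609.9 and 719.7 CPM with TNFα and 198, 219, 299 and 188 CPM with TPCA-1, so that all treated libraries were lower (log2 -1.39, SE 0.16, adjusted p = 1.21e-05). The 3 that rose, named after their values were seen, were Hbegf (1.09), Pdgfb (0.86) and Vegfa (0.75). Il6 had a log2 change of 0.75 with an adjusted p of 0.176.

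Chemokines of both families were lower in part. Of 9 measured CC chemokines 5 fell, with or without replicate 2, and Ccl5 rose (1.64, chosen after its values were seen), a call lost without TPCA-1+TNFα replicate 4, when none rose; 2 rose without TNFα replicate 4. Ccl2, which draws monocytes (chr11:82035571-82037453), had 90.3, 37.7, 81.9 and 84.8 CPM with TNFα and 17.6, 7.16, 17.4 and 10.6 CPM with TPCA-1. Ccl7, its neighbour, had 64.8, 31.4, 53.7 and 41.6 CPM with TNFα and 7.19, 0.811, 5.45 and 6.71 CPM with TPCA-1. Neither gene's groups overlapped, and they fell by 2.45 (adjusted p = 0.000146) and 3.15 (adjusted p = 0.000118) on the log2 scale. The DMSO means were 140.1 ± 24.8 CPM for Ccl2 and 203 ± 57.9 CPM for Ccl7. TNFα alone was lower than DMSO for Ccl7 (adjusted p = 0.00114), and Ccl2 did not pass that test (log2 -0.93, adjusted p = 0.0601). Of 10 CXC chemokines 3 fell and 1 rose, the same as without replicate 2, and 5 fell without TPCA-1+TNFα replicate 1. Cxcl2, which draws neutrophils, had 513, 763, 725 and 643 CPM with TNFα and 370.2, 296, 544 and 219 CPM with TPCA-1. The highest treated library exceeded the lowest TNFα library, and Cxcl2 fell by 0.89 (adjusted p = 0.0121; 0.0395 without replicate 2). It remained above its DMSO mean of 17.1 ± 3.16 CPM in all 4 treated libraries. Cxcl1, of the same kind, had a change of -1.37 (adjusted p = 0.0929), and Cxcl10, the interferon-inducible T cell attractant with both motifs above, one of -1.21 (adjusted p = 0.0524). Cxcl9 fell by 3.99 (4.73 without TPCA-1+TNFα replicate 1) from 0.491 to 1.74 CPM with TNFα to at most 0.147 CPM with TPCA-1. With 3, 0, 1 and 1 reads in the TPCA-1+TNFα libraries, the size of its fall is poorly fixed. Ppbp rose by 1.21, a call that ended without TNFα replicate 1 (adjusted p = 0.0730), 2 (0.107) or 4 (0.0654) or TPCA-1+TNFα replicate 1 (0.0534) or 3 (0.144).

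Several enzymes of inflammatory metabolism fell. Acod1, which makes itaconate (chr14:103046977-103056573), had 2928, 2645, 3529 and 3548 CPM with TNFα and 477, 549, 838 and 262 CPM with TPCA-1. No treated library came near the TNFα range, and the level was 5.95-fold lower (SE 0.29 on the log2 scale, adjusted p = 6.81e-06). The DMSO mean was 126 ± 35.1 CPM. Slc7a2, an arginine transporter, fell by 4.03. Nos2, the inducible nitric oxide synthase, was low throughout, at 0.687 to 1.98 CPM with TNFα, and had no read in 3 of the treated libraries and 0.297 CPM in TPCA-1+TNFα replicate 3. Its fitted change of -3.79 rests on that library and was -7.69 without it. Of 9 measured arginine, nitric oxide and itaconate genes 5 fell, with or without replicate 2, and 2 rose, 1 of them without replicate 2 and also without TNFα replicate 1, 3 or 4 or TPCA-1+TNFα replicate 4. Sod2, the mitochondrial superoxide dismutase, went from 1547, 1375, 1480.2 and 1145 CPM to 488, 407, 521 and 244 CPM without overlap (adjusted p = 3.54e-06). The glutathione peroxidase Gpx1 rose by 1.10. Of 31 NRF2 and antioxidant genes 7 fell and 5 rose (6 and 2 without replicate 2, with 3 rising without TNFα replicate 1 or 3), and in 23 of them the treated libraries lay above every DMSO library, where 12.1% of all genes did so. TNFα alone raised 24 of the 31 against DMSO, beside 1377 of all 12612 genes. The list's median change with TPCA-1 against TNFα was -0.03. In the prostaglandin list 5 of 16 fell (5 without replicate 2), led by the synthase Ptges (-2.00), and 3 rose (2 without it). Ptgs2, cyclooxygenase 2, had 95.9, 129.5, 139 and 101 CPM with TNFα and 70.3, 34.6, 71.6 and 38.2 CPM with TPCA-1, without overlap, and fell by 1.11 (adjusted p = 0.00260).

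The genes of the pathway that TPCA-1 targets moved in both directions, and the share called was 38.5% of the IKK and upstream kinases, 27.3% of the NF-κB and IκB genes and 23.8% of the TNF receptor complex, beside 19.4% of all genes. Ikbkb, which encodes the target kinase IKK2, had 75.2, 73.6, 76.1 and 73.9 CPM with TNFα and 65.9, 69.3, 73.0 and 67.7 CPM with TPCA-1 (log2 -0.12, SE 0.08, adjusted p = 0.337). The inhibitor acts on the protein, and its transcript is no check of the treatment. Ikbkg, the scaffold NEMO, had a change of -0.23 (adjusted p = 0.251). Chuk, which encodes IKK1, fell by 0.44 (adjusted p = 0.0424), a call that ended without any of TNFα replicates 1 (0.108), 2 (0.130) and 3 (0.0837) or of TPCA-1+TNFα replicates 2 (0.117), 3 (0.0730) and 4 (0.0824). The median over the kinases was -0.21, and 6 of the 13 were lower without overlap between the groups. Of these 13 measured IKK and upstream kinases 4 fell and 1 rose (3 and 1 without replicate 2; 2 fell without TPCA-1+TNFα replicate 4, and 5 fell and 2 rose without TPCA-1+TNFα replicate 1). The riser was Map3k14 (NIK), with 14.0, 15.6, 18.2 and 27.0 CPM with TNFα and 29.1, 64.3, 36.2 and 54.4 CPM with TPCA-1, without overlap (log2 1.29, SE 0.25, adjusted p = 0.00140).

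Of 11 NF-κB subunits and IκB proteins 2 fell and 1 rose (3 and 1 without replicate 2; 3 and 2 without TPCA-1+TNFα replicate 1). Nfkb1, which encodes p105 and p50, had 122, 119, 133 and 135 CPM with TNFα and 79.6, 99.5, 92.1 and 72.3 CPM with TPCA-1 and fell by 0.57 (adjusted p = 0.00165). The other faller was Nfkbie (-0.85, chosen after its values were seen). Nfkbid, a nuclear IκB protein, rose from 21.8, 19.3, 23.8 and 28.9 CPM to 39.4, 48.6, 53.6 and 39.8 CPM (adjusted p = 0.000219). Rela (0.26), Nfkb2 (0.27) and Relb (0.03) did not pass; Relb was -0.24 without the shallow library. Nfkbia, the IκBα gene, had 376, 374, 442 and 540.3 CPM with TNFα and 237, 431, 312 and 275 CPM with TPCA-1. Its shallow library lay inside the TNFα range, and the change was -0.47 (adjusted p = 0.105) with that library and -0.66 (adjusted p = 0.0233) without it. The ubiquitin-editing inhibitor Tnfaip3 (A20) had 146, 172, 178 and 169.9 CPM with TNFα and 69.2, 74.7, 98.5 and 61.7 CPM with TPCA-1, without overlap (log2 -1.13, SE 0.13, adjusted p = 7.29e-06). Its partner Tnip3 fell by 1.38. These 2 were the only fallers among 21 genes of the TNF receptor complex and its ubiquitin editing, of which 3 rose (Tnip2, Traf5 and Traf1, named after their values were seen). The risers numbered 1 without TPCA-1+TNFα replicate 2 or TNFα replicate 1 and 5 without TPCA-1+TNFα replicate 1 or TNFα replicate 4. The adhesion genes Icam1 (-0.08, adjusted p = 0.784) and Vcam1 (0.44, adjusted p = 0.410) did not pass. Icam1 was at 444 to 489 CPM with TPCA-1, beside a DMSO mean of 167 ± 57.5 CPM. Hdac9, the gene named in the series title, had 3.30, 4.02, 4.17 and 4.29 CPM with TNFα and 2.93, 3.24, 4.66 and 3.26 CPM with TPCA-1 (log2 -0.16, adjusted p = 0.587).

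**Figure D4:**
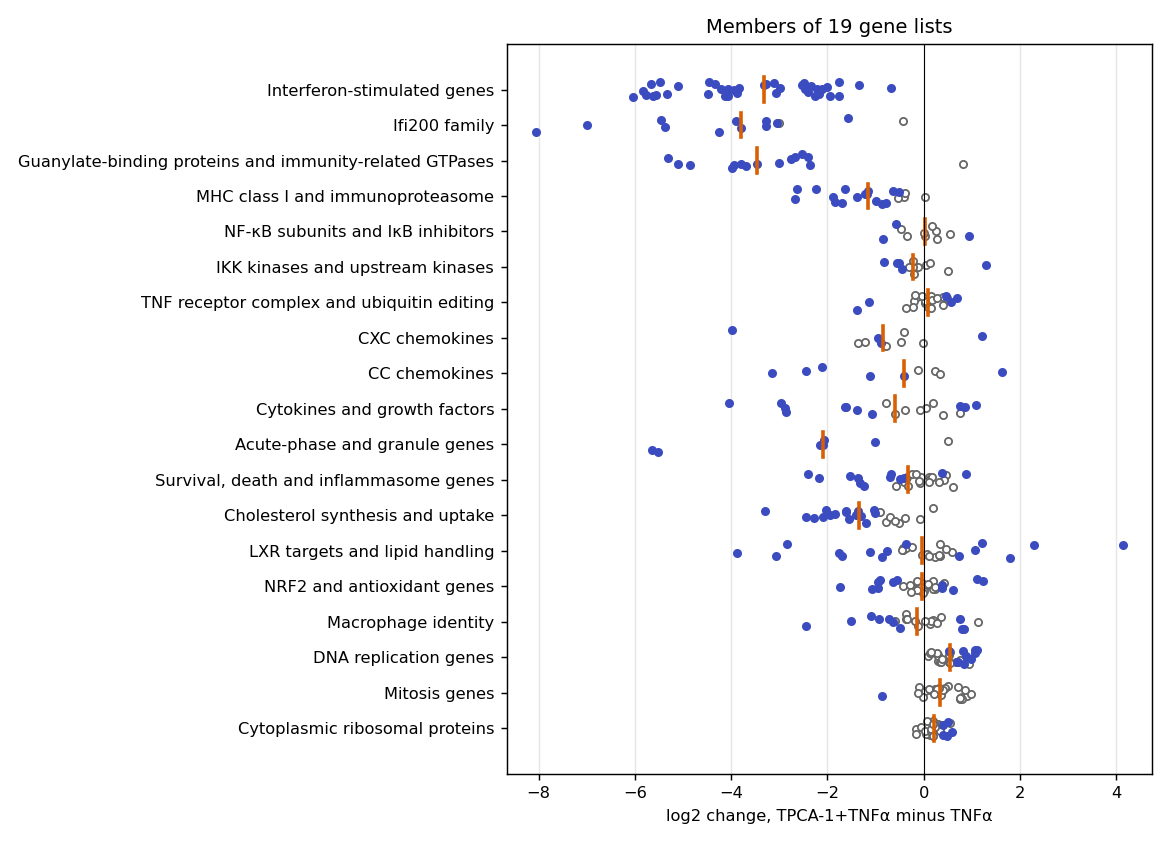
Log2 change of each measured member of 19 gene lists (TPCA-1+TNFα minus TNFα); filled points passed the test, open points did not, and the bar is the median. The interferon-regulated lists lie far to the left, while the NF-κB, TNF receptor and IKK lists have medians of 0.03, 0.09 and -0.21 with members on both sides of 0.

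Survival and death genes fell more often than they rose: 10 of 31 were lower and 2 higher (11 and 1 without TPCA-1+TNFα replicate 2). The second rising call was also lost without TNFα replicate 1, 2 or 3 or TPCA-1+TNFα replicate 3 or 4. Nlrp3, the inflammasome sensor whose promoter is shown above (chr11:59541568-59566956), had 80.0, 92.7, 116 and 104 CPM with TNFα and 17.7, 13.5, 29.3 and 13.3 CPM with TPCA-1, without overlap (log2 -2.40, SE 0.24, adjusted p = 1.82e-06). Ier3, an early NF-κB target, fell by 1.32. The feedback phosphatases of the MAP kinases were divided, with 7 of 12 lower and 4 higher (5 and 3 without replicate 2; 4 lower without TPCA-1+TNFα replicate 4). Dusp6, which acts on ERK, went from 20.4, 20.2, 23.04 and 26.1 CPM to 5.62, 5.41, 9.56 and 5.06 CPM (adjusted p = 3.05e-06), while Dusp5, which also acts on ERK, rose by 1.17 (adjusted p = 0.000340). Of 9 chemokine and formyl peptide receptors 4 fell and 1 rose (2 and 0 without TPCA-1+TNFα replicate 2 or TNFα replicate 1 or 3, 3 and 0 without TPCA-1+TNFα replicate 4). Of the receptors that guide phagocytes to bacteria, Fpr1 was 2.83-fold lower and Fpr2 2.97-fold lower. The membrane protease Mmp14 fell by 2.33 and the collagenase Mmp13 by 2.24.

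Cholesterol synthesis and uptake genes fell together. Of 24 measured members 16 were lower and none higher, with or without replicate 2 (median -1.34). Hsd17b7, an enzyme of the later steps, had 29.7, 16.2, 24.0 and 31.8 CPM with TNFα and 8.31, 4.86, 8.42 and 6.27 CPM with TPCA-1 (log2 -1.84, SE 0.27, adjusted p = 0.000142). Hmgcs1, which makes the substrate of HMG-CoA reductase, went from 54.7, 23.9, 41.4 and 52.6 CPM to 17.9, 10.3, 14.9 and 15.2 CPM (adjusted p = 0.00112). Neither gene's groups overlapped. The TNFα libraries differed widely for this list. Their medians relative to the TNFα group mean were 0.24, -0.85, -0.01 and 0.66 on the log2 scale, against -1.14, -1.29, -1.27 and -1.12 in the treated libraries. Against TMP195 with TNFα 4 of the 24 passed, all lower with TPCA-1. Over all genes 12.6% were higher and 13.1% lower in that comparison. In the list of LXR targets and lipid handling 9 of 29 fell and 6 rose (8 and 5 without replicate 2). Acsl1, which activates fatty acids, had 352, 355, 424 and 312 CPM with TNFα and 106, 96.5, 159.7 and 84.4 CPM with TPCA-1, with no overlap (adjusted p = 1.38e-06). Pparg, the fatty acid receptor (chr6:115360951-115490399), moved the other way, from 16.8, 20.7, 14.6 and 17.1 CPM to 39.5, 40.9, 34.3 and 46.0 CPM, and all treated libraries were higher (log2 1.22, SE 0.13, adjusted p = 5.29e-06). Its DMSO mean was 42.0 ± 4.04 CPM. The lipid droplet protein Plin2, chosen after its values were seen, rose from 202, 329, 206 and 201 CPM to 1003, 1521, 902 and 1151 CPM (adjusted p = 8.31e-06). Angptl4, a lipase inhibitor chosen in the same way, had 0 to 0.687 CPM with TNFα and 2.62 to 6.08 CPM with TPCA-1 (adjusted p = 0.000120).

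**Figure D5:**
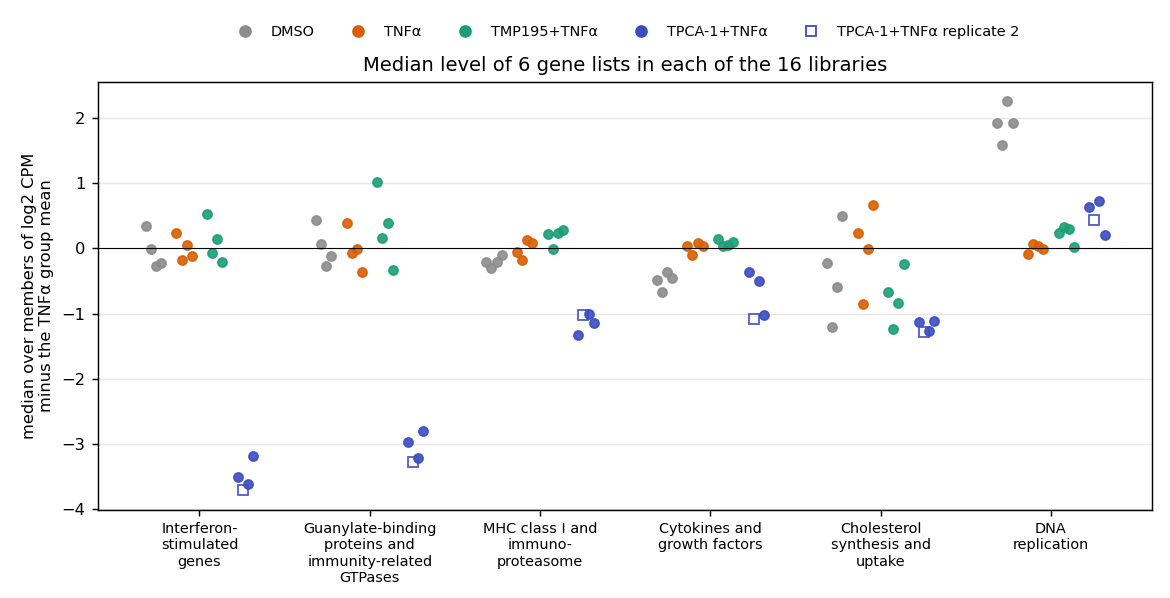
Median over the members of 6 gene lists of log2 CPM minus the TNFα group mean, for each of the 16 libraries; the open square is TPCA-1+TNFα replicate 2. The 4 TPCA-1+TNFα libraries stand between -3.71 and -3.18 for the interferon-stimulated genes. For the cholesterol list they lie close to replicate 2 of TMP195+TNFα (-1.23) and of DMSO (-1.20), and below the other libraries of these groups.

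Several of the genes that rose most lay outside the inflammatory lists. Kctd12b, a protein of the potassium channel tetramerisation domain family (chrX:153685154-153696391), had 1.93, 2.01, 2.63 and 1.16 CPM with TNFα and 29.3, 18.4, 17.8 and 18.2 CPM with TPCA-1, without overlap (10.7-fold higher, SE 0.27 on the log2 scale, adjusted p = 1.53e-07). Its DMSO mean of 15.5 ± 3.94 CPM was near the treated level. Spib, an ETS factor related to PU.1 (chr7:44525993-44532071), had 2.05, 6.53, 4.08 and 4.87 CPM with TNFα and 22.1, 50.5, 27.2 and 53.0 CPM with TPCA-1, 8.65-fold higher (SE 0.38 on the log2 scale, adjusted p = 1.93e-05). Here the DMSO mean was 5.50 ± 1.86 CPM, so that all treated libraries were above both other groups. Rn7sk, the RNA that holds the elongation factor P-TEFb inactive, rose by 3.11 on the log2 scale. The metallothionein Mt2 rose by 2.38, the repressor Klf11 by 2.59 and the membrane-anchored semaphorin Sema7a by 2.44. Srpk3, a kinase of splicing factors, rose by 2.604 and by 2.02 without TPCA-1+TNFα replicate 2, and Lad1, an anchoring filament protein, by 2.94 and 2.02. In both genes the shallow library was the highest of the treated ones, at 32.2 and 63.2 CPM.

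Some DNA replication genes rose. Of 28 replication genes 10 rose and none fell (8 without TPCA-1+TNFα replicate 2, 6 without TNFα replicate 1 or 3; median 0.54). Of 24 mitosis genes none rose and Hmmr fell (-0.86; median 0.35). Mcm5, part of the replicative helicase, had 2.56, 2.75, 3.19 and 2.32 CPM with TNFα and 4.99, 6.89, 5.99 and 3.89 CPM with TPCA-1 (adjusted p = 0.00235). Tyms, thymidylate synthase, had 4.21, 3.14, 3.75 and 4.01 CPM with TNFα and 7.19, 6.76, 6.24 and 7.68 CPM with TPCA-1 (adjusted p = 0.00156). Both genes were without overlap and low in level. In 24 of the 28 replication genes, and in all 24 mitosis genes, the treated libraries still lay below every DMSO library. Over all genes 14.1% did so. TNFα alone lowered 28 of the 28 replication genes and 23 of the 24 mitosis genes against DMSO, beside 1568 of all 12612 genes. The stress genes Atf3 and Ddit4 rose by 1.17 and 1.84, and Jund, an AP-1 subunit, by 0.76; none of 13 AP-1 and EGR factors fell and 4 rose, with or without replicate 2.

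Macrophage identity genes moved in both directions. Of 24 identity genes 7 fell and 3 rose (6 and 3 without replicate 2), with a median of -0.15. That was 41.7% of the list called, beside 19.4% of all genes. Adgre1 had a change of 0.11 (adjusted p = 0.617) and Cd68 one of -0.36 (adjusted p = 0.112). Csf1r, the receptor for the growth factor of these cells, had 857, 784, 1053 and 1058 CPM with TNFα and 374, 436, 638 and 305 CPM with TPCA-1, with no overlap, and fell by 1.10 (adjusted p = 0.000896). Fcgr1, the high-affinity IgG receptor, had 163, 104, 156 and 138 CPM with TNFα and 31.2, 18.2, 29.5 and 23.2 CPM with TPCA-1 (log2 -2.44, SE 0.24, adjusted p = 1.41e-06). Fewer cells of a type and less RNA per cell cannot be told apart in these bulk samples.

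Markers of other cells were low, and some moved. The summed level of 16 lymphocyte markers was 34.6 to 58.2 CPM with TNFα and 61.7 to 116 CPM with TPCA-1, carried by Cd79b, Ighm and Cd4, while the defining genes Cd3e and Cd79a had at most 7 reads over all 16 libraries. Cd79b rose by 1.23, and Ighm by 0.94, a call lost without any of TNFα replicates 1, 2 and 3 or TPCA-1+TNFα replicates 2 and 4 (adjusted p up to 0.168). The 12 neutrophil markers summed to 146 to 187 CPM with TNFα and 58.9 to 103 CPM with TPCA-1, with Ly6g, Elane and S100a9 at 0 reads, and Csf3r fell by 1.19. The 10 dendritic cell markers summed to 3.69 to 7.09 CPM and 6.79 to 11.4 CPM, with Batf3 higher by 0.95 and Zbtb46 by 1.67, calls that both ended without TNFα replicate 1 (0.0519 and 0.0527), and that of Zbtb46 also without TNFα replicate 2 (0.0573) or TPCA-1+TNFα replicate 3 (0.0721). The 14 stromal and endothelial markers summed to 18.6 to 25.04 CPM and 27.4 to 55.5 CPM, nearly all of it Acta2 (-0.37, adjusted p = 0.148) and Pecam1, which rose by 2.08, and Col3a1 and Tek were at 0 reads. The 11 erythroid and megakaryocyte markers summed to 1274 to 1703 CPM and 489 to 1090 CPM, nearly all of it the chemokine Pf4 (-0.95). The 9 mast cell and basophil markers summed to 7.13 to 14.7 CPM and 8.42 to 21.6 CPM and the 10 osteoclast markers to 265 to 336 CPM and 217 to 397 CPM, with none called; 1 osteoclast marker was called without TPCA-1+TNFα replicate 1 or TNFα replicate 4. The part of these markers in the results above was not tested.

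RNA composition moved too. The 30 ribosomal protein genes summed to 17553 to 19222 CPM with TNFα and 20237 to 25253 CPM with TPCA-1, the shallow library highest. Among the 30, 5 rose, and 1 rose without replicate 2. The number was also 1 without TNFα replicate 1, 2 or 3. It was 3 without TPCA-1+TNFα replicate 4, 8 without TNFα replicate 4 and 10 without TPCA-1+TNFα replicate 1. Over all genes 9.67% were higher, and 919 of 12764 were higher without replicate 2. None of 9 measured mitochondrial transcripts passed (mt-Co1 -0.13, adjusted p = 0.690). The part of RNA composition in the gene changes was not tested.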

How the data were processed

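RNA from 16 macrophage libraries was sequenced, and the authors deposited whole-number read counts per gene for each library, aligned and counted with STAR 2.6.1d on mm10/GRCm38 per the submitters' processing notes; the annotation release is not given in the sources used here. The counts on the opposite strand (column 4) were used, since the other strand held few reads, and the first 4 lines, which name no gene, were left out (unmapped reads 4.00% to 44.0%). Of 54838 gene identifiers, 54809 matched GENCODE M21 and 29 did not. Counts were tested with edgeR 4.0.16 in R 4.3.3 (limma 3.58.1): TMM normalisation, filterByExpr, a mean per group over all 16 libraries, quasi-likelihood tests and Benjamini-Hochberg adjustment over all genes tested, with a threshold of 0.05. Every adjusted p in the text comes from this test unless another is named. CPM are TMM-normalised.

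Named genes were the 10 with the largest change in each direction, among those called without overlap and with a mean of at least 5 CPM, for each of 46 gene lists (851 genes) at most 2 called members, those of lowest adjusted p, the most abundant marker of other cells, and a fixed set of pathway genes and usual targets. The members and lists were chosen with earlier results of these data known. Where a gene outside this rule is named, the text says that it was picked with its values in view. Promoter sequences came from RefSeq (GRCm38.p6), matched by symbol.

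Alternatives were each replicate left out, a replicate block, only the 8 libraries in the fit, DESeq2 1.42.0, its size factors, no filter on low counts, limma voom with sample weights and unstranded counts. The fit was tested on simulated data. Some genes are not reported here. CPM of genes with near copies reflect only uniquely mapped reads.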

Additional observations from a re-analysis of the deposited data

Results flagged for a closer look

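In 15 of the 228 groups of 4 libraries checked for the named genes reported here, 1 library lay far outside the others by Dixon's criterion at the 95% level; chance flags about 1 in 20 groups. In the TNFα group, replicate 2 was low for Ccl2 at 37.7 CPM (others 81.9 to 90.3), and replicate 1 was low for Cd79b at 12.4 CPM (others 19.2 to 20.3) and high for Igtp at 63.0 CPM (others 51.7 to 53.3). TNFα replicate 4 was low for Fpr1 at 988 CPM (others 1392.5 to 1442) and high for Irf9 at 76.6 CPM (others 66.3 to 68.0) and for Mir6236 at 43.0 CPM (others 17.1 to 20.2). In the TPCA-1+TNFα group, the shallow replicate 2 was high for Icosl at 60.3 CPM (others 43.7 to 46.0) and for Lad1 at 63.2 CPM (others 11.4 to 16.1). Replicate 1 was low for Csf3r at 28.6 CPM (others 37.2 to 37.7) and for Icam1 at 444 CPM (others 483 to 489), and high for Kctd12b at 29.3 CPM (others 17.8 to 18.4). Replicate 3 was high for Cp at 33.0 CPM (others 23.2 to 24.6), for Dusp6 at 9.56 CPM (others 5.06 to 5.62) and for Nos2 at 0.297 CPM (others 0). Replicate 4 was low for Cxcl1 at 6.08 CPM (others 48.0 to 55.8).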

How the results depend on the processing

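Leaving out 1 library at a time gave 1650 to 3313 genes changed, 725 to 1632 higher and 925 to 1681 lower. The labels do not say whether libraries of the same replicate number belong together, and the main fit does not pair them. Same-numbered TNFα and TPCA-1+TNFα libraries correlated at 0.511, -0.043, 0.250 and 0.155 in their deviations from the group means. Not every library correlated best with its own number, so that these values do not settle a pairing. The median of the cholesterol list was lowest in replicate 2 and highest in replicate 4 of every group. With a replicate block 3835 genes changed, 1999 of them higher and 1836 lower. The block also called 5 named genes that did not pass in the main fit, Cxcl1 (adjusted p = 0.000252), Cxcl10 (0.00415), Nfkbia (0.0382), Rela (0.0416) and Il6 (0.0428). With the block and without TPCA-1+TNFα replicate 2 the numbers were 3839, 1907 and 1932. With only the 8 libraries in the fit 1551 changed, 732 higher and 819 lower; this fit has fewer libraries to estimate the spread. DESeq2 called 2895, its size factors in edgeR 2432, no filter 2235, voom 3212 and unstranded counts 2420. Against TMP195+TNFα the block gave 4645 genes. Among 116 named genes, 106 kept their direction and side of the threshold without replicate 2. Signs turned for 4 genes that did not pass the test. Icam1 ranged from -0.16 to 0.047 over the omissions and was 0.015 with voom. Il3ra ranged from -0.0091 to 0.61 and mt-Co1 from -0.33 to 0.040, and with the block and without replicate 2 they were -0.085 and 0.066. Relb ranged from -0.24 to 0.19, and was -0.29 with the block and without replicate 2, -0.0077 without a filter and -0.090 with voom. The cause was not tested. The 4 libraries a group limit the precision, and low genes rest on few reads in the shallow library.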

Other observations

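Pattern-recognition genes fell more often than they rose: of 22 Toll-like receptor, complement and Fc receptor genes 8 were lower and 3 higher (7 and 1 without TPCA-1+TNFα replicate 2, and 1 higher without TNFα replicate 1, 2 or 3 or TPCA-1+TNFα replicate 4). Tlr2, the receptor for bacterial lipoproteins, fell by 0.95. Among lysosome genes, 7 of 36 were lower and 5 higher (6 and 4 without replicate 2, 8 and 8 without TPCA-1+TNFα replicate 1). The share called was 50% of the pattern-recognition genes and 33.3% of the lysosome genes. Over all genes it was 19.4%, with 9.72% lower and 9.67% higher. The protease Ctsc fell by 1.20. Mitf, a factor that drives lysosome genes, fell by 0.86.

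Of 29 glycolysis and hypoxia genes 4 rose and 3 fell (3 and 3 without replicate 2), a share of 24.1% beside 19.4% of all genes, and hexokinase Hk2 fell by 0.58. Of 20 ATF4 stress genes 4 rose and 1 fell, a share of 25% beside 19.4% of all genes. The faller was Cebpb (-0.74, chosen after its values were seen), a call lost without TPCA-1+TNFα replicate 1, 2 or 4 or TNFα replicate 3 or 4. The risers numbered 2 without TPCA-1+TNFα replicate 2 or 4 or TNFα replicate 1, 2 or 3, and 6 without TPCA-1+TNFα replicate 1 or TNFα replicate 4. Of 35 nuclear genes of oxidative phosphorylation 4 rose, 1 without TPCA-1+TNFα replicate 2 or 4 or TNFα replicate 1 or 2 and none without TNFα replicate 3. The 4 were 11.4% of the list, near the 9.67% of all genes called higher. Slc40a1, the iron exporter ferroportin, rose by 1.21, and Klf4, a factor of alternative activation, rose by 1.16.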
